A study of Mus musculus with 4 samples.

Results

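The genes that drive the cell cycle and copy DNA were followed in the developing mouse cortex with and without human SERPINA3. A list of 46 genes was used, and all 46 were found by symbol among the 26433 genes of the count table. They were sorted by role into 13 genes of S phase and DNA replication, 8 G1 cyclins and cyclin-dependent kinases (CDKs), 3 CDK inhibitors, 5 genes of the E2F and RB family, and 17 genes of G2 and mitosis. The rule takes them by symbol and uses no measured value, but the list was drawn up with earlier results of these data known. RNA was taken from cerebral cortex at embryonic day 15 (E15) of C57BL/6 mice, and the study compared cKI f/+ mice with wild-type (WT) littermates. The cKI f/+ mice carry a Flag-tagged human SERPINA3 behind a CAG promoter and a loxP-flanked stop cassette in one Rosa26 allele, and Nestin-Cre removes the cassette in Nestin-positive cells and their progeny. The floxed line was bred with B6D2F2 mice before the cross to Nestin-Cre. Each genotype had 2 libraries, KI2 and KI3 for cKI f/+ and WT1 and WT3 for WT, although the labels describe sequencing in triplicate. Nothing says which embryo gave which library, so the p-values below measure only the spread between these libraries.

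The cell cycle is driven by cyclins, which bind and activate CDKs in turn. In G1, D-type cyclins with CDK4 and CDK6, then E-type cyclins with CDK2, phosphorylate the RB proteins and free the E2F factors, which switch on the genes for DNA replication. CDK inhibitors hold these kinases back. Later, cyclin A and cyclin B with CDK1 carry the cell into mitosis, where Aurora and Polo-like kinases, kinesins and the spindle checkpoint act. In the E15 cortex, the dividing cells are mainly radial glia in the ventricular zone and intermediate progenitors in the subventricular zone, whereas neurons have left the cycle. The study was about the growth of these progenitor pools, and the question here was whether the transcripts of the cycle differed between the genotypes.

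The promoters of these genes show 2 kinds of short sequence that are known to time expression within the cycle, and they show how the S-phase and the mitotic genes differ. E2F factors bind a site at many replication genes, and the cell cycle homology region (CHR) is a 6-base element at many genes expressed in G2 and mitosis. RefSeq promoters on build GRCm38.p6, from 250 bases before to 50 bases after a transcription start, were matched for 38 of the 46 genes, which have 44 promoters. The following windows are written 5′ to 3′ on the strand of the gene, with the matched letters in capitals. The first 3 belong to the replication genes Mcm5 (chr8:75109341-75109378, plus strand), Mcm6 (chr1:128359730-128359767, minus strand) and Cdc6 (chr11:98907998-98908035, plus strand). The last 3 belong to the mitotic genes Mki67 (chr7:135716457-135716492, minus strand), Cdk1 (chr10:69352963-69352998, minus strand) and Top2a (chr11:99024192-99024227, minus strand).
Mcm5 E2F site: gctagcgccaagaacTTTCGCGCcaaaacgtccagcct
Mcm6 E2F site: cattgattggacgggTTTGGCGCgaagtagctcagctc
Cdc6 E2F site: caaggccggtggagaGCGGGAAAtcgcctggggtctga
Mki67 CHR: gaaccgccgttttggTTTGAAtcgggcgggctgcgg
Cdk1 CHR: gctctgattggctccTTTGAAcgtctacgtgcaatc
Top2a CHR: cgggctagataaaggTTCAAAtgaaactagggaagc

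These windows end their match 145 bases before the RefSeq start of Mcm5, 39 bases before that of Mcm6 and 130 bases before that of Cdc6. The deposited counts place Cdc6 from 98907801 onward, so its window lies inside the gene as placed there. For Mki67, Cdk1 and Top2a the distances were 92, 65 and 17 bases. A single window is shown for each gene, and Mcm5, Mcm6, Mki67 and Top2a hold further matches of the same motif. The E2F site was searched on both strands as TTTCCCGC, TTTCGCGC, TTTGCCGC or TTTGGCGC, and CHR on both strands as TTTGAA or TTCGAA. Neither motif contains the other, although matches of both may overlap or lie side by side, as in Mcm7. An E2F site was found in 6 of 12 promoters of S-phase genes (50%), in 1 of 15 promoters of mitotic genes (6.67%), which was that of Cdk1, in 3.75% of the promoters of genes tested and in 2.26% of all 32851 promoters. CHR was found in 12 of 15 promoters of mitotic genes (80%), in 2 of 12 promoters of S-phase genes (16.7%), in 13.6% of the promoters of genes tested and in 19.2% of all promoters. The CCAAT box, which often stands beside CHR, was found in 14 of 15 mitotic promoters (93.3%), 9 of 12 S-phase promoters (75%), 37.2% of the promoters of genes tested and 37.4% of all promoters. These are matches of letters and not measured binding.

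In the table, the 4 libraries held between 17423512 and 18119444 reads on genes, so that 3 reads, taken as the floor of detection, corresponded to 0.166 to 0.172 CPM (read counts scaled to library size), a limit that covers counting error only. Every one of the 46 genes passed the expression filter, and their reads ranged from 140 to 14539 per library. Levels are given as CPM after TMM normalization, which scales libraries to each other. The test was edgeR's quasi-likelihood test over all 15786 genes that passed the filter, with Benjamini-Hochberg adjustment over all of them, and libraries of a genotype varied with a biological coefficient of 8.72%. In a design of 2 against 2, an exact permutation test of a single gene cannot give a two-sided p below 0.333. Sex-linked transcripts separated the genotypes in all 4 libraries. Xist, the transcript of the inactive X chromosome, had 13223 and 11882 reads in cKI f/+ and 5 in each WT library, and Kdm5d, on chromosome Y, had 951 and 918 reads in WT and 0 in each cKI f/+ library. Embryo sex and genotype therefore cannot be told apart. In such bulk tissue, fewer cells of a type and less RNA per cell also cannot be told apart. Radial glia markers such as Pax6 and Sox2 and neuron markers such as Tubb3 and Dcx were present in all libraries, with sums of 2221 to 2380 CPM over 8 radial glia markers and 5829 to 6493 CPM over 8 neuron markers.

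Between cKI f/+ and WT cortices, none of the 46 cell cycle genes was called. By edgeR's quasi-likelihood test at an adjusted p under 0.05, 0 of 46 passed, against 0.12% of all genes tested (0.0697% higher and 0.0507% lower in cKI f/+), and the adjusted p-values of the 46 ran from 0.969 to 0.9995. At an unadjusted p under 0.05, 2 of the 46 passed (4.35%), against 4.6% of all genes, namely Cdkn1a, which was higher in cKI f/+ (2.26% of all genes), and Rb1, which was lower (2.34% of all genes). DESeq2 also called 0, and had the same genes under an unadjusted p of 0.05. There were 25 genes with a higher and 21 with a lower fitted value in cKI f/+, where 51.2% of all genes had a higher one, and the median log2 fold change was 0.01 over the list and 0.00 over all genes. The genotypes did not overlap for 13 of the 46 genes (28.3%), against 34.1% of all genes. Of these, 9 had both cKI f/+ libraries above (17.3% of all genes) and 4 below (16.9% of all genes). The difference between the genotypes was larger than the differences within both genotypes for 8 of the 46 (17.4%), against 22.2% of all genes. Each of these shares was near or below that of all genes.

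**Figure D1:**
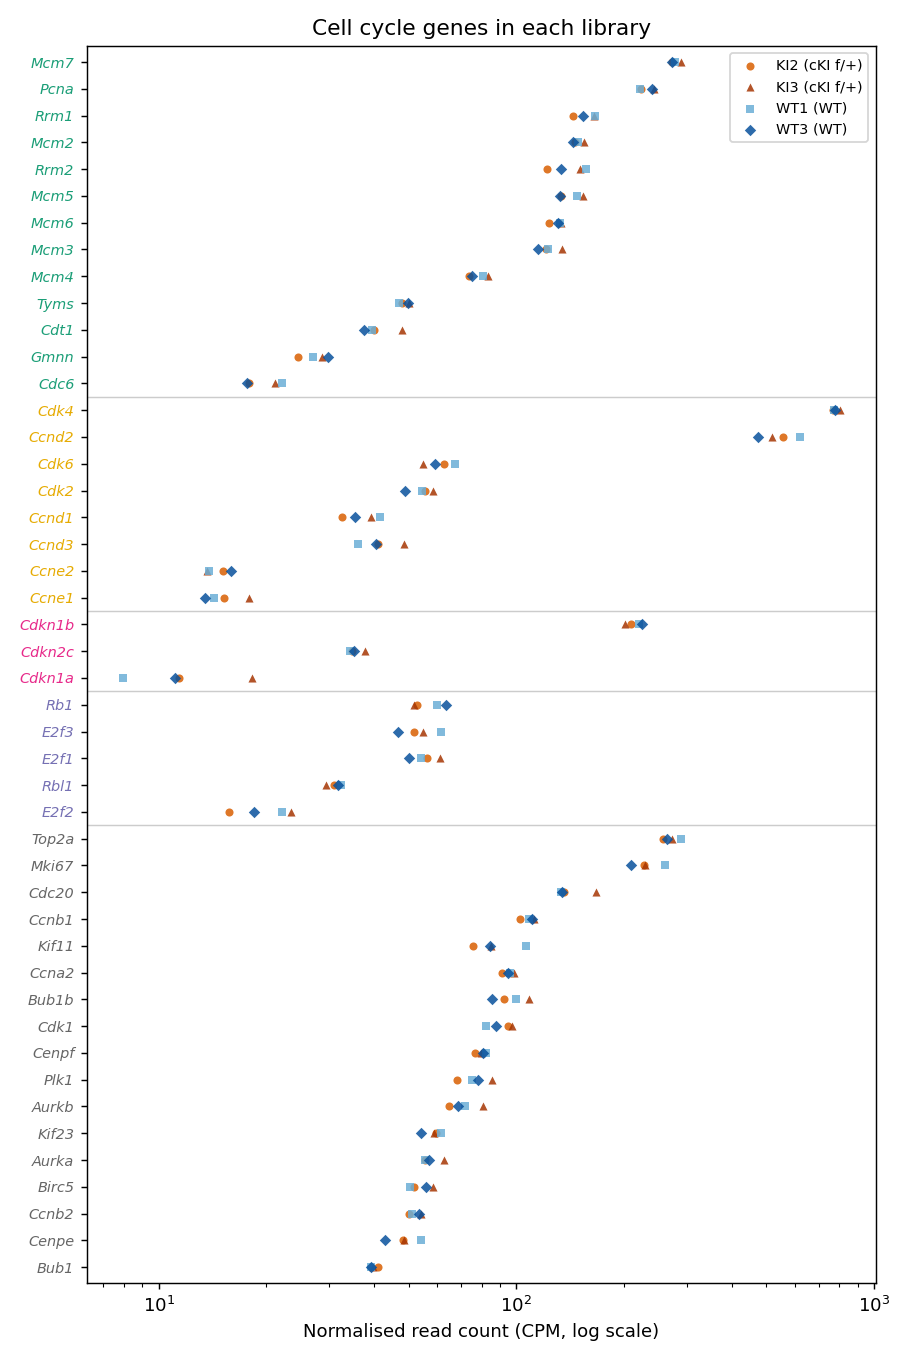
Normalised read count (CPM, log axis) of each of the 46 genes in the 4 libraries, with circles and triangles for the cKI f/+ libraries KI2 and KI3, squares and diamonds for the WT libraries WT1 and WT3, and gene names coloured by role. For most genes the points of the genotypes are mixed, and for 13 of 46 they do not overlap.

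Genes of S phase were examined first. The median log2 fold change of the 13 genes was 0.02, with 8 higher and 5 lower in cKI f/+ and none called. Pcna, the clamp that holds DNA polymerase on its template, was at 224 and 242 CPM in KI2 and KI3 and at 222 and 239 CPM in WT1 and WT3. The groups overlapped, and the log2 fold change was 0.02 (95% interval -0.17 to 0.20). Reads of the processed copy Pcna-ps2, between 331 and 395 per library, may be shared with it, since how such reads were divided is not stated.

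The 6 Mcm genes encode the ring-shaped helicase that opens the DNA ahead of the replication fork, and their log2 fold changes lay between -0.03 and 0.10. Mcm2 was at 146 and 154 CPM in cKI f/+ and 149 and 144 CPM in WT, a log2 fold change of 0.04 (95% interval -0.14 to 0.21). Mcm5, which carries the E2F site shown above, was at 133 and 154 CPM in cKI f/+ and 148 and 133 CPM in WT, a log2 fold change of 0.03 (95% interval -0.18 to 0.25). For both genes each genotype had 1 higher and 1 lower library, and the groups overlapped. Of the ring's other subunits, Mcm7 had the highest level, 280 ± 10.9 CPM in cKI f/+ and 275 ± 3.55 CPM in WT (SD, n = 2), and it overlaps Cops6 and Ap4m1 on the other strand.

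Cdc6 and Cdt1 load the helicase onto origins in G1, and geminin, the product of Gmnn, blocks Cdt1 after replication has begun. Cdt1 was at 39.9 and 48.0 CPM in cKI f/+ and 39.5 and 37.5 CPM in WT. It was the S-phase gene with the largest difference, a log2 fold change of 0.19 (adjusted p = 0.969 by edgeR's quasi-likelihood test), and KI2 exceeded WT1 by less than KI3 exceeded KI2. Gmnn had a log2 fold change of -0.09, and Cdc6 one of -0.03. Rrm1 and Rrm2, the subunits of the reductase that makes deoxynucleotides, had log2 fold changes of -0.05 and -0.09, and Tyms, which makes thymidylate, one of 0.02. Cdt1 alone of the 13 genes had groups that did not overlap (7.69%, against 34.1% of all genes). For none of the 13 was the genotype difference larger than the differences within both genotypes, against 22.2% of all genes.

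The G1 cyclins and their kinases showed the same mixture. Ccnd2, the D-type cyclin with the most reads, was at 556 and 517 CPM in KI2 and KI3 and at 619 and 473 CPM in WT1 and WT3. The WT libraries enclosed the cKI f/+ libraries, and the log2 fold change of -0.03 (95% interval -0.29 to 0.24) was far below the log2 difference of 0.39 between WT1 and WT3. Ccnd1 was at 32.5 and 39.2 CPM in cKI f/+ and 41.6 and 35.3 CPM in WT, a log2 fold change of -0.10 (95% interval -0.38 to 0.18). It overlaps Oraov1 on the other strand, which had nearly as many reads. Ccne1, the E-type cyclin of the G1 to S transition, was at 15.3 and 17.8 CPM in cKI f/+ and 14.3 and 13.5 CPM in WT. Both cKI f/+ libraries were above both WT libraries, with a log2 fold change of 0.25 (95% interval -0.06 to 0.56, adjusted p = 0.969 by edgeR's quasi-likelihood test). Ccne2, its paralog, had a log2 fold change of -0.05, with overlapping groups, and it overlaps Ints8 on the other strand, which had more reads than Ccne2.

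Among the kinases of G1, Cdk4 had the highest level of the 46 genes per kilobase of exon, 242 CPM per kb in cKI f/+ and 238 CPM per kb in WT, and a log2 fold change of 0.02. Pcna, at 96.0 CPM per kb in WT, and Cdc20, at 71.5, came next, and Cdc6, at 3.80, and Cdkn1a, at 2.68, were the lowest of the 46. Cdk2, the partner of cyclin E, was at 55.4 and 58.5 CPM in cKI f/+ and 54.5 and 48.9 CPM in WT, and its log2 fold change was 0.14. Cdk6 had a log2 fold change of -0.11 with overlapping groups. Ccnd3 was at 41.0 and 48.6 CPM in cKI f/+ and 36.1 and 40.4 CPM in WT, a log2 fold change of 0.23 (95% interval -0.03 to 0.48), and it overlaps Bysl on the other strand, which had more reads than Ccnd3. Of the 8 genes, Ccne1, Cdk2 and Ccnd3 had both cKI f/+ libraries above both WT libraries, and 5 had overlapping groups. These 3 made up 37.5% of the list. Of all genes, 17.3% lay above in this way and 34.1% did not overlap in either direction.

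**Figure D2:**
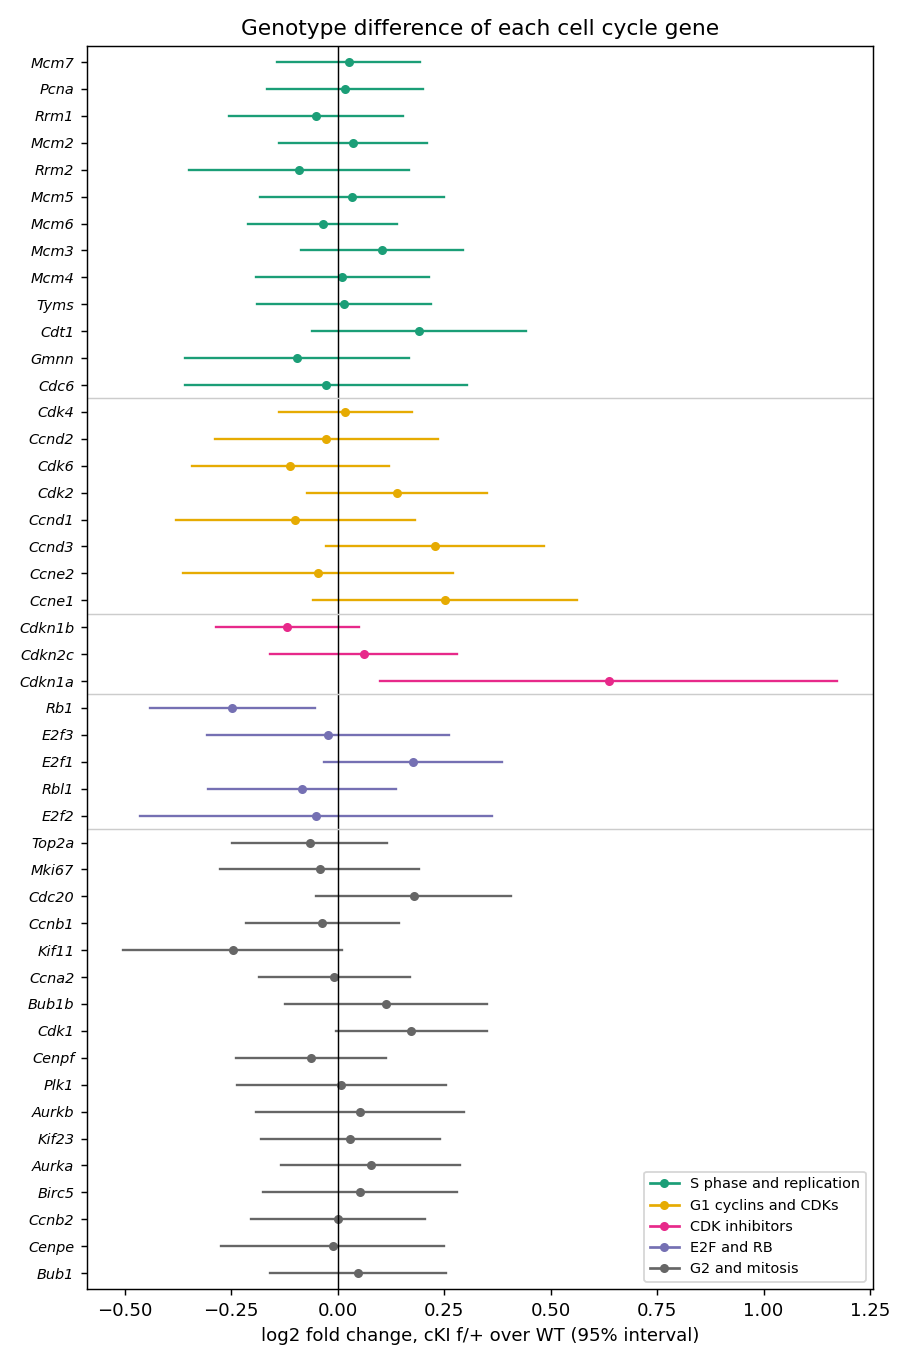
Log2 fold change of cKI f/+ over WT for each of the 46 genes (x axis, points), with lines for the 95% interval of edgeR's fit and colours for the role of the gene. Only the intervals of Cdkn1a and Rb1 leave out 0, without adjustment for the number of genes, and 43 of 46 lie within 0.5 of 0 on the log2 scale.

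Cdkn1a encodes p21, which stops CDK2 and is a target of p53. It was at 11.4 and 18.2 CPM in KI2 and KI3 and at 7.94 and 11.1 CPM in WT1 and WT3, from 201, 330, 140 and 194 reads. Both cKI f/+ libraries were above both WT libraries, but KI2 and WT3 were nearly equal, and KI3 stood apart. The log2 fold change was 0.64 (standard error 0.24, 95% interval 0.10 to 1.17), with an unadjusted p of 0.0252 and an adjusted p of 0.969 by edgeR's quasi-likelihood test. KI3 exceeded KI2 by 0.65 on the log2 scale, the largest difference within a genotype among the 46 genes. Without KI3 the log2 fold change of Cdkn1a was 0.26 (adjusted p = 0.9995 by edgeR's quasi-likelihood test), and without KI2 it was 0.92 (adjusted p = 0.109 from the same test). The gene lies on chromosome 17 from 29090979 to 29100722 on the plus strand, in the coordinates of GRCm38.

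The other inhibitors were steadier. Cdkn1b, which encodes p27 and helps progenitors leave the cycle, was at 209 and 202 CPM in cKI f/+ and 221 and 225 CPM in WT. All 4 libraries were close together within their genotype, with both cKI f/+ libraries below both WT libraries, and the log2 fold change was -0.12 (95% interval -0.29 to 0.05, adjusted p = 0.969 by edgeR's quasi-likelihood test). Cdkn2c, which encodes the CDK4 and CDK6 inhibitor p18, was at 34.8 and 37.6 CPM in cKI f/+ and 34.3 and 35.1 CPM in WT, a log2 fold change of 0.06 with overlapping groups.

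Rb1, the retinoblastoma gene that keeps E2F inactive in G1, was at 52.7 and 51.6 CPM in KI2 and KI3 and at 60.1 and 63.6 CPM in WT1 and WT3. The libraries of each genotype were close to each other, and both cKI f/+ libraries were below both WT libraries. Its mean was 52.2 ± 0.804 CPM in cKI f/+ and 61.9 ± 2.47 CPM in WT (SD, n = 2). The log2 fold change of Rb1 was -0.25 (standard error 0.09, 95% interval -0.44 to -0.05), with an unadjusted p of 0.0181 and an adjusted p of 0.969 by edgeR's quasi-likelihood test. After a correction for GC content and length, which was added after seeing the data, it was -0.16 with an unadjusted p of 0.0624. Rb1 lies on chromosome 14 from 73183673 to 73325822 on the minus strand and overlaps Rcbtb2 and Lpar6 on the other strand. Rcbtb2 had more reads than Rb1 itself, and whether the counting used the strand is not stated. Rbl1, which encodes the related p107, was at 31.0 and 29.4 CPM in cKI f/+ and 32.3 and 31.7 CPM in WT, a log2 fold change of -0.08.

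E2f1, the activator set free by RB, was at 56.3 and 61.2 CPM in cKI f/+ and 54.0 and 49.9 CPM in WT. Both cKI f/+ libraries were above both WT libraries, and the log2 fold change was 0.18 (95% interval -0.03 to 0.39, adjusted p = 0.969 by edgeR's quasi-likelihood test). E2f2, another activator, was at 15.7 and 23.4 CPM in cKI f/+ and 22.1 and 18.5 CPM in WT. The cKI f/+ libraries enclosed the WT libraries and differed from each other by 0.56 on the log2 scale, beside a log2 fold change between genotypes of -0.05. E2f3, the remaining activator, was at 51.8 and 54.9 CPM in cKI f/+ and 61.6 and 46.8 CPM in WT, and here the WT libraries enclosed the others, with a log2 fold change of -0.02. After Cdkn1a, E2f2 and E2f3 had the largest differences between libraries of one genotype, and both were larger than any difference between the genotypes seen in this family.

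The genes of G2 and mitosis had a median log2 fold change of 0.01, with 10 of 17 higher and 7 lower in cKI f/+ and none called. Mki67, the Ki-67 gene used to mark cycling cells, was at 227 and 229 CPM in KI2 and KI3 and at 261 and 209 CPM in WT1 and WT3. The cKI f/+ libraries nearly coincided and lay between the WT libraries, and the log2 fold change was -0.04 (95% interval -0.28 to 0.19). Top2a, the topoisomerase that untangles sister chromatids, was at 256 and 272 CPM in cKI f/+ and 289 and 264 CPM in WT, a log2 fold change of -0.06 (95% interval -0.25 to 0.12) with overlapping groups.

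Cdk1, the kinase of mitotic entry, was at 94.6 and 97.4 CPM in cKI f/+ and 82.4 and 87.9 CPM in WT. Both cKI f/+ libraries were above both WT libraries, and the log2 fold change of 0.17 (95% interval -0.00 to 0.35) had an adjusted p of 0.969 by edgeR's quasi-likelihood test. Its partner Ccnb1 was at 102 and 112 CPM in cKI f/+ and 108 and 111 CPM in WT, a log2 fold change of -0.04 (95% interval -0.21 to 0.14). The other mitotic cyclins also had overlapping groups, with log2 fold changes of 0.00 for Ccnb2 and -0.01 for Ccna2, which overlaps Exosc9 on the other strand. Processed copies of Ccnb1 and Ccnb2 are in the table, with 17 to 24 and 132 to 214 reads per library.

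Plk1, the Polo-like kinase that drives spindle assembly, was at 68.2 and 85.6 CPM in cKI f/+ and 74.9 and 78.0 CPM in WT. The cKI f/+ libraries enclosed the WT libraries, and the log2 fold change was 0.01 (95% interval -0.24 to 0.25). The Aurora kinase genes Aurka and Aurkb had log2 fold changes of 0.08 and 0.05. Cdc20, which activates the complex that ends metaphase, was at 135 and 167 CPM in cKI f/+ and 133 and 134 CPM in WT, so that KI3 alone stood apart, and the log2 fold change was 0.18 (95% interval -0.05 to 0.41). Kif11, the kinesin that separates the spindle poles, was at 75.8 and 85.1 CPM in cKI f/+ and 106 and 84.5 CPM in WT, with WT1 standing apart and a log2 fold change of -0.25 (95% interval -0.50 to 0.01). The spindle checkpoint genes Bub1 and Bub1b had log2 fold changes of 0.05 and 0.11, the centromere protein genes Cenpe and Cenpf -0.01 and -0.06, Kif23, a kinesin of cytokinesis, 0.03, and Birc5, which encodes survivin, 0.05. Of the 17 genes, 3 had a genotype difference larger than the differences within both genotypes, against 22.2% of all genes. These were Cdk1, Bub1 and Cenpf. The margin was slim for Bub1 (log2 fold change 0.048, largest difference within a genotype 0.046) and Cenpf (-0.062 and 0.057).

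Between the 2 cKI f/+ libraries, most genes of the cycle differed in the same direction. Of the 46 genes, 38 were higher in KI3 than in KI2 (82.6%), against 49.7% of all genes tested, and the median difference was 0.11 on the log2 scale, against -0.00 over all genes. These were 13 of 13 S-phase genes, with a median of 0.17, 15 of 17 mitotic genes, with a median of 0.11, and 10 of the 16 others. Between the WT libraries, 29 of 46 were higher in WT1 than in WT3 (63.0%), against 47.7% of all genes. KI3 was the highest library for 27 of the 46 genes (58.7%, against 27.0% of all genes), WT1 for 14, WT3 for 4 and KI2 for 1. The lowest library was KI2 for 17, WT3 for 15, WT1 for 9 and KI3 for 5, and over all genes KI2 was lowest for 21.1% and WT3 for 24.6%. The median size of the difference between genotypes was 0.05 on the log2 scale, and that of the differences within genotypes was 0.12 in cKI f/+ and 0.11 in WT. Over all genes these sizes were 0.099, 0.122 and 0.141. The first size compares groups of 2 libraries, and the others compare single libraries. Single libraries vary more than groups, so part of this gap comes from the measure.

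**Figure D3:**
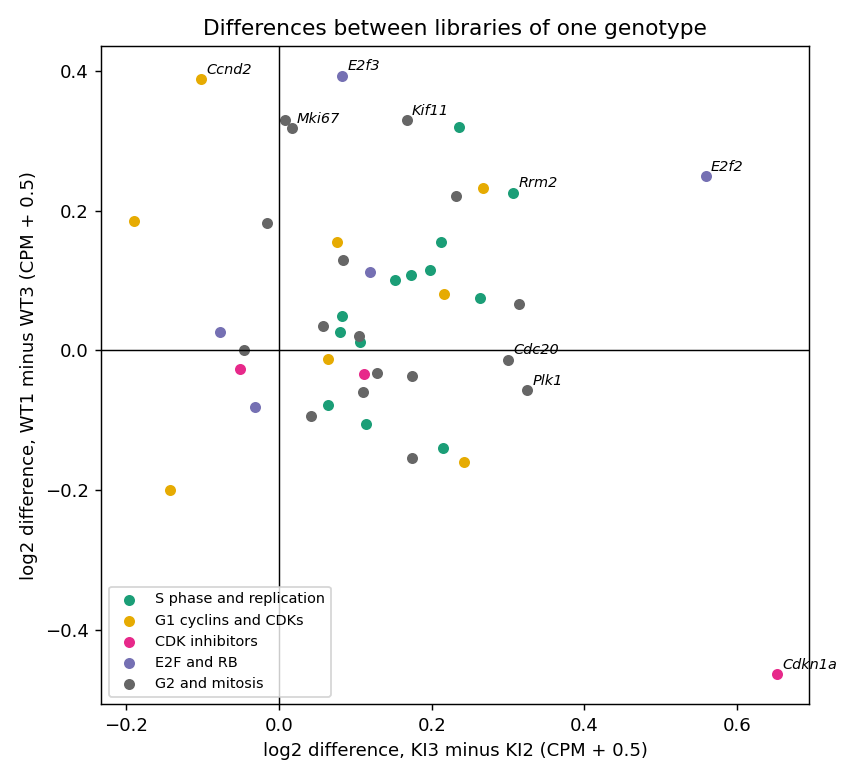
Log2 difference between the cKI f/+ libraries, KI3 minus KI2 (x axis), against that between the WT libraries, WT1 minus WT3 (y axis), for each of the 46 genes, coloured by role and computed from CPM plus 0.5. Of the 46 points 38 lie to the right of 0 on the x axis, among them all 13 S-phase genes, and Cdkn1a lies farthest from 0 at 0.65.

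Summed over the 13 S-phase genes, the level was 1488 and 1652 CPM in KI2 and KI3 and 1590 and 1530 CPM in WT1 and WT3, which gave 1570 ± 116 CPM in cKI f/+ and 1560 ± 42.4 CPM in WT (SD, n = 2). The sum over the 17 mitotic genes was 1591 and 1738 CPM in KI2 and KI3 and 1717 and 1601 CPM in WT1 and WT3, or 1664 ± 104 CPM in cKI f/+ and 1659 ± 82.0 CPM in WT. In both sums the cKI f/+ libraries enclosed the WT libraries, with KI3 1.11 times KI2 for S phase and 1.09 times KI2 for mitosis. S-phase and mitotic genes moved in parallel from library to library. The ratio of the S-phase sum to the mitotic sum was 0.936 and 0.951 in KI2 and KI3 and 0.926 and 0.956 in WT1 and WT3, again with overlapping groups. The median S-phase gene deviated from its mean over the libraries by -0.07, 0.07, 0.01 and -0.04 on the log2 scale in KI2, KI3, WT1 and WT3, and the median mitotic gene by -0.06, 0.05, 0.01 and -0.03.

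Other genes of the pathway, taken from lists of the same roles, gave the same picture. The 52 other replication genes included those of the GINS complex, the polymerases and the origin recognition complex. Of these 52, 0 were called by edgeR's quasi-likelihood test, against 0.12% of all genes. At an unadjusted p under 0.05, 0 passed, against 4.6% of all genes. In cKI f/+ 22 were higher and 30 lower, with a median log2 fold change of -0.02. The smallest p-values belonged to Mcm8 (log2 fold change -0.24), Fen1, the flap endonuclease (0.54), and Rpa1, of the single-strand binding complex (0.12). Of 61 other mitotic genes tested, 0 were called, and 30 were higher and 31 lower. Of these, 1, G2e3, had an unadjusted p under 0.05, against 4.6% of all genes (log2 fold change -0.20, unadjusted p = 0.0394 by edgeR's quasi-likelihood test). Next came Cdca3 (0.18) and Ncapg2 (-0.20). Of 31 other cell cycle regulators tested, 18 were higher and 13 lower and 0 were called, and Myc (-0.25), Cdkn2d (0.16) and Lin52 (-0.14) had the smallest p-values. In this list Cdkn2a, Cdkn2b and Ccnb3 did not pass the expression filter. KI3 was above KI2 for 44 of the 52 replication genes (84.6%), 50 of the 61 mitotic genes (82.0%) and 24 of the 31 regulators (77.4%). Of all genes, 49.7% were higher in KI3.

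**Figure D4:**
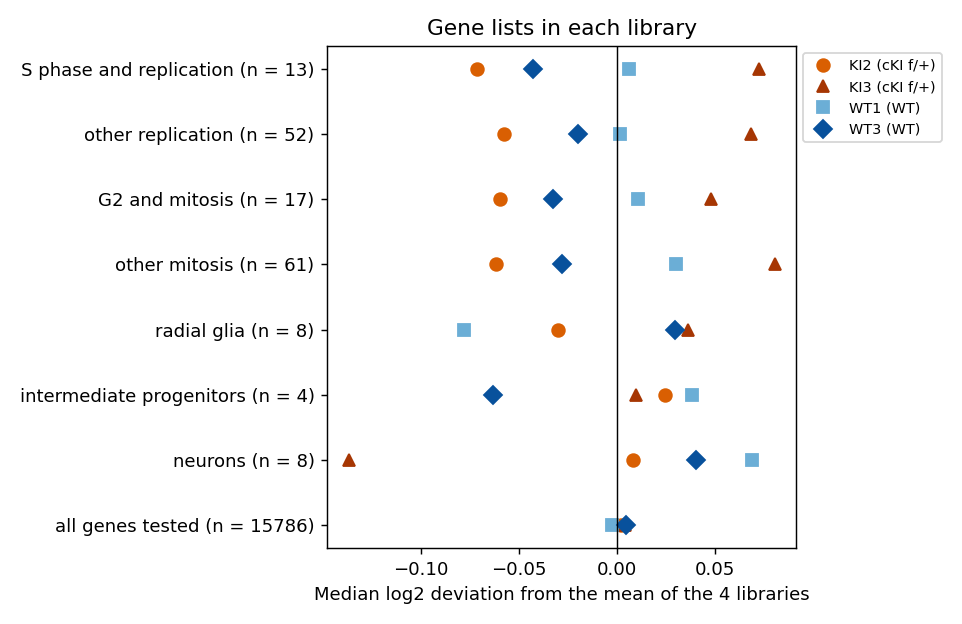
Median log2 deviation of the genes of a list from their mean over the 4 libraries (x axis), for S-phase and mitotic genes, the further replication and mitotic lists, 3 cell type marker lists and all 15786 genes tested, with orange symbols for cKI f/+ libraries and blue symbols for WT libraries. In the 4 cell cycle lists KI2 is lowest and KI3 highest, at -0.07 and 0.07 for S phase, with the WT libraries between them, and for neuron markers KI3 is lowest.

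Markers of other cell types differed between the same libraries. Of 8 neuron markers, 0 were higher in KI3 than in KI2, and their sum was 6325 and 5829 CPM in KI2 and KI3 and 6404 and 6493 CPM in WT1 and WT3. All 8 also had a lower fitted value in cKI f/+ than in WT, where 51.2% of all genes had a higher one. The median log2 fold change of these markers was -0.13, and 0 were called. Radial glia markers, of which 6 of 8 were higher in KI3 than in KI2, summed to 2239 and 2380 CPM in cKI f/+ and 2221 and 2369 CPM in WT. Intermediate progenitor markers, with 1 of 4 higher in KI3, summed to 1093 and 1073 CPM in cKI f/+ and 1084 and 1032 CPM in WT. Choroid plexus markers summed to 8.40 and 63.6 CPM in KI2 and KI3 and 0.510 and 2.18 CPM in WT1 and WT3, and Ttr, the transthyretin gene that defines this tissue, had 116, 956, 0 and 4 reads. The sum of blood markers was 509 and 384 CPM in cKI f/+ and 508 and 538 CPM in WT, and that of meningeal markers 21.6 and 19.4 CPM in cKI f/+ and 9.98 and 11.1 CPM in WT. For dorsal telencephalon the sums were 1623 and 1734 CPM in cKI f/+ and 1591 and 1645 CPM in WT, and for ventral telencephalon 240 and 250 CPM against 245 and 308 CPM. Endothelial markers summed to 84.8 to 93.9 CPM and microglial markers to 23.2 to 28.5 CPM over the libraries. The part of these cell types in the differences between KI3 and KI2, or between the genotypes, was not tested.

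The differences between libraries were also set beside the length and GC content of the transcripts. Across the 46 genes, the difference of KI3 from KI2 had a Spearman correlation of 0.61 with GC content and -0.50 with exon length, and that of WT1 from WT3 one of 0.46 with length and -0.07 with GC content. Across the 17 mitotic genes, the correlations of KI3 minus KI2 were 0.72 with GC content and -0.69 with length. Across the 13 S-phase genes they were 0.016 and -0.46, and all 13 were higher in KI3. Over all genes with a length, the correlations of KI3 minus KI2 were 0.13 and -0.15. For the difference between genotypes, the correlation with GC content was 0.65 over the 46 genes and 0.33 over all genes. These are descriptions across genes of the same libraries, and genes are not independent replicates. With the correction for GC content and length, 40 of the 46 genes were higher in KI3 than in KI2, all 13 S-phase genes among them. This correction follows the trend over all genes. The part of GC content and length in the differences between libraries was not tested.

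The precision of these values was read from the intervals, which are not adjusted for the number of genes. The 95% interval of the log2 fold change reached 0.22 to each side for the median of the 46 genes, with a range of 0.16 to 0.54. It lay within 0.5 of 0 for 43 genes, including 13 of 13 S-phase genes and 16 of 17 mitotic genes, and the exceptions were Cdkn1a, Ccne1 and Kif11. For Pcna, Mcm2 and Top2a, changes beyond 0.25 on the log2 scale in either direction lay outside the interval, whereas for E2f2, at -0.46 to 0.36, they did not. Cdkn1a, with a log2 fold change of 0.64, missed the adjusted threshold, and the absence of calls does not show that the genotypes were alike.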

How the data were processed

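Bulk RNA-seq of E15 cortex was analysed from 2 cKI f/+ and 2 WT libraries. The deposited table holds raw counts of reads per gene, which the authors made from Illumina HiSeq 2500 reads. The submitters' processing notes name Bowtie2 2.2.3, TopHat2 2.0.12, HTSeq 0.6.0 and build mm9, without their roles, but the table gives genes at their GRCm38 positions, which 45 of the 46 genes share with GENCODE M21. Each column was matched to a genotype and not to a labelled sample. The deposited columns of the authors' own comparison (mean normalized signal, fold change as a ratio and as log2, p-value and adjusted p-value) were not used. The human transgene was not analysed here.

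Genes were filtered (filterByExpr), normalized by TMM and tested with edgeR 4.0.16 (quasi-likelihood) in R 4.3.3, and the script was tested on simulated data. Library differences used log2(CPM + 0.5). Exon lengths came from GENCODE M21 and promoters from RefSeq. Alternatives were DESeq2 1.42.0, the likelihood ratio test, other normalizations, filters and thresholds, chromosomes X and Y left out, and each library left out. The members, the wider lists and the cell type markers were chosen with earlier results of these data known. Values per library were given for 16 genes fixed by role, genes with an unadjusted p under 0.05 and the 3 with the largest difference within a genotype. In the further lists the 3 genes with the smallest p were named. Values per library of Ccnd3, Cdt1, Cdk2, Cdc20, Kif11 and Rbl1 and group means of Mcm7 were added after their values were seen.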

Additional observations from a re-analysis of the deposited data

How the results depend on the processing

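None of the 46 cell cycle genes was called by any of the alternatives, and the number with an unadjusted p under 0.05 was 2 in each alternative that kept all 4 libraries, but after the GC and length correction these were Cdkn1a and Cdk1 in place of Rb1. The number of all genes called was 19, against 54 by the likelihood ratio test, 11 when chromosomes X and Y were removed, 6 when each library had to hold 10 counts, and 46 to 71 with 1 library left out, where the lone library of a genotype is assumed to vary like the other group. With 1 library left out, the median log2 fold change of S-phase genes ran from -0.081 to 0.063 and that of mitotic genes from -0.055 to 0.050. Both medians were negative without KI3. Single genes were followed through all alternatives only for 18 of the 46, those given per library by the rule above. Among these 18, leaving out a library turned the direction of Pcna (-0.045 to 0.072), Mcm2 (-0.0095 to 0.067), Mcm5 (-0.081 to 0.13), Ccnd1 (-0.25 to 0.025), Ccnd2 (-0.21 to 0.18), Cdkn2c (-0.00094 to 0.11), E2f2 (-0.37 to 0.20), E2f3 (-0.21 to 0.19), Mki67 (-0.19 to 0.13), Top2a (-0.13 to 0.0021), Ccnb1 (-0.11 to 0.017) and Plk1 (-0.17 to 0.15). Cdkn1a (0.26 to 0.92), Rb1 (-0.29 to -0.20), Ccne1 (0.13 to 0.35), E2f1 (0.11 to 0.24), Cdk1 (0.13 to 0.22) and Cdkn1b (-0.15 to -0.097) kept theirs. The GC and length correction was added after seeing the data. Among the 18 genes it turned Ccnd2 (0.017), Cdkn2c (-0.013), Mki67 (0.0079), Top2a (0.012), Ccnb1 (0.016) and Plk1 (-0.057), and brought E2f1 to 0.10 and Cdkn1b to -0.052. Among the other genes of the 46 it turned Mcm7 (-0.0042), Rrm1 (0.034), Ccne2 (0.089), Cdk4 (-0.021), Ccna2 (0.023), Ccnb2 (-0.021), Cenpe (0.070) and Cenpf (0.027). The cause was not tested. Of 234 values for the 18 followed genes under the alternatives, 209 kept direction and side of the threshold and 25 turned direction. The number of genes higher in KI3 than in KI2 was 38 with TMM and 38 to 40 under other scalings, also added after seeing the data. No paired analysis was possible because cKI f/+ and WT labels have fewer than 2 numbers in common. Intervals cover the spread between 2 libraries a group.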
